A study of Homo sapiens with 4 samples.

Results

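The integrated stress response is described here through 10 of its transcription factors and effectors, read from the RNA of a clear cell renal carcinoma cell line without and with restored VHL. The 10 genes were ATF4, ATF5, DDIT3, CHAC1, TRIB3, NUPR1, CEBPB, CEBPG, PPP1R15A and VLDLR. They were taken by gene symbol from the 12912 genes of the count table, none of the symbols was repeated there, and all 10 passed the filter on low counts. 786-O is an established human cell line that carries a VHL mutation. 786-O-Ctrl and 786-O-VHL are sublines of it. HA-tagged VHL was brought into 786-O-VHL with a retroviral vector, a control vector in 786-O-Ctrl is not named in the sources used here, and both sublines carry the triple-reporter (thymidine kinase, GFP and luciferase) from a retroviral vector. They were grown in the same serum-containing medium, no added stressor is named in the labels, and each genotype is represented by 1 subline. RNA was sequenced in 2 libraries per subline, and p-values measure the spread between these libraries, which may be technical. Total counts were 22141263 and 15714166 for 786-O-Ctrl and 2807779 and 16114120 for 786-O-VHL replicates 1 and 2. Since 1 replicate name stands on both columns of 786-O-Ctrl, its libraries are called the deeper and the shallower one.

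In the integrated stress response, kinases that sense unfolded protein in the endoplasmic reticulum, missing amino acids, double-stranded RNA or mitochondrial and heme stress phosphorylate the initiation factor eIF2α. Most translation then slows, while a few mRNAs with short upstream reading frames, that of ATF4 foremost, are translated more. ATF4 pairs with C/EBP proteins such as CEBPB and CEBPG on DNA and turns on amino acid supply, DDIT3 (CHOP), and feedback genes that include TRIB3 and PPP1R15A (GADD34). RNA-seq counts mRNA and reads neither the phosphorylation of eIF2α nor the translation of ATF4.

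Of the 10 genes, 8 were higher in 786-O-VHL, 1 was lower and 1 was not called by edgeR's quasi-likelihood test at a Benjamini-Hochberg adjusted p (FDR) under 0.05. Over all 12335 genes tested, 32.6% were called higher and 31.9% lower by that rule, so a call in itself was common. The log2 fold changes of the 10 genes had a median of 1.27, against 0.02 over all genes tested. The 10 genes were chosen with earlier results of these data known, so these comparisons describe them and do not test them as a set. NUPR1, DDIT3 and PPP1R15A were more than 4-fold higher at an FDR under 0.01, and none of the 10 was more than 4-fold lower. Over all genes these shares were 2.92% and 1.54%. In 9 of the 10 genes the libraries of the sublines did not overlap, with 8 genes higher and 1 lower in both 786-O-VHL libraries. Over all genes tested, 40.8% lay higher and 39.2% lower in both 786-O-VHL libraries in that way. With 2 libraries against 2, an exact two-sided permutation test of a single gene cannot go below 0.333.

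VHL itself (chr3:10183462-10195351 of GRCh37, the build called hg19) was measured in CPM, which are the counts of a gene relative to the TMM-scaled total of its library. It was at 42.9 CPM in the deeper library of 786-O-Ctrl and at 43.9 CPM in the shallower one, and in replicates 1 and 2 of 786-O-VHL it was at 178 and 163 CPM. Values below are given in this order of libraries. The libraries separated in the direction of their labels, with a log2 fold change of 1.96 (SE 0.0706, FDR 2.86e-19, edgeR). All 9 renal epithelial and clear cell carcinoma markers examined had counts, and their summed level was 3350 to 3370 CPM in 786-O-Ctrl, against 2110 to 2260 CPM in 786-O-VHL. VIM alone went from 1670 and 1700 to 751 and 709 CPM, while CDH6 (219 and 215 to 366 and 251 CPM) and NNMT (202 and 204 to 298 and 289 CPM) were higher in 786-O-VHL. Of markers of leukocytes, endothelium, and fibroblasts and smooth muscle, 1, 2 and 2 of 4 were in the table, with sums of at most 1.02, 0.76 and 12.9 CPM. The fibroblast and smooth muscle sum was 9.64 to 9.97 CPM in 786-O-Ctrl, against 12.6 to 12.9 CPM in 786-O-VHL, and the part of these differences in the results was not tested. Replicates differed by a median of 0.08 (786-O-Ctrl) and 0.16 (786-O-VHL) on the log2 scale over 12188 genes. A count of 0 would allow up to 3 counts, or 1.02 CPM in the shallowest library, for counting error only. The lowest count of any of the 10 genes in any library was 54.

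Promoter sequence from RefSeq (GRCh38.p14) was available for 9 of the 10 genes, from 250 bases before to 50 after each start, and NUPR1 had no entry. The sites shown are those whose letters match a recognition sequence of the ATF4 and C/EBP families, since these families are themselves among the genes measured, and a box of ATF4. Each is given 5′ to 3′ with 30 bases, and the capitals mark the match, which may lie on either strand. They lie at chr15:40953251-40953280 (CHAC1), chr19:33374060-33374089 (CEBPG), chr19:48872352-48872381 and chr19:48872263-48872292 (PPP1R15A), chr19:49928791-49928820 (ATF5) and chr22:39520465-39520494 (ATF4), all on the plus strand.
CHAC1 composite match: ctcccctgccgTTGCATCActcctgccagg
CEBPG composite match: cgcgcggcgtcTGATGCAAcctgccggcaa
PPP1R15A CRE match: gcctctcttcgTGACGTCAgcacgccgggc
PPP1R15A C/EBP match: ccgccgtgacgTTGCAAAAgctggaatctc
ATF5 C/EBP match: ctggcaggaaaTTCTGCAAgcaaggaaagg
ATF4 E-box match: ggaggagacggtCACGTGgtcgcggcggaa

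TGATGNAA, the composite of an ATF and a C/EBP element, was found in CHAC1, 209 bases before its start, and in CEBPG, 42 bases before the second listed start. Of all 35116 promoter windows, 3.62% hold it. The cyclic AMP response element TGACGTCA, a palindrome, was found in PPP1R15A 58 bases before the start, against 1.85% of all windows. The C/EBP sequence TTGCNNAA was found in PPP1R15A and ATF5, against 10.5% of all windows, and TGACGTAA in none of the 9 genes, against 0.416%. CACGTG was found in ATF4 alone among the 9, against 7.26% of windows, and contains the hypoxia core ACGTG on each strand, which 21.4% of windows hold. The other hypoxia core, GCGTG, was found in 8 of the 9 genes, against 36.5% of windows, where the 9 genes have 17 windows between them. CHAC1 and PPP1R15A rose 3.33-fold and 4.76-fold, CEBPG rose 2.05-fold, ATF5 fell and ATF4 was not called, so genes with a match went in different directions. A match is a likeness of letters only, and binding was not measured.

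ATF4 (chr22:39915700-39918688), the transcription factor at the centre of the response, was at 483 and 500 CPM in 786-O-Ctrl, against 499 and 549 CPM in 786-O-VHL. The groups overlapped, as the shallower 786-O-Ctrl library lay just above 786-O-VHL replicate 1. Its log2 fold change of 0.10 (SE 0.0626, 95% CI -0.03 to 0.23) had an edgeR FDR of 0.161. The interval leaves room for a rise of at most 1.17-fold. With replicate 1 of 786-O-VHL left out, the value was 0.16 and passed the threshold (edgeR FDR 0.00195, with FDR between 0.00147 and 0.806 over all 11 alternatives). ATF4 has 4 annotated pseudogene copies, 0 of which are listed in the count table.

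ATF5 (chr19:50431959-50437192), a relative of ATF4 that is also translated through upstream reading frames, was the gene that went the other way. It was at 26.8 and 26.2 CPM in 786-O-Ctrl, against 18.3 and 18.9 CPM in 786-O-VHL. Both 786-O-VHL libraries were lower, by about the same amount. The log2 fold change was -0.50 (SE 0.118, 95% CI -0.74 to -0.26, edgeR FDR 0.000555). Exons of NUP62 on the opposite strand cover 19.5% of the exon bases of ATF5, and the kit used does not mark strand, so reads of that stretch cannot be assigned to one of them.

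DDIT3 (chr12:57910371-57915520, minus strand) encodes CHOP, a C/EBP family factor that takes part in cell death when stress lasts. It was at 19.2 and 19.3 CPM in 786-O-Ctrl, against 95.3 and 104 CPM in 786-O-VHL, from 405, 291, 281 and 1756 counts. The library with the fewest reads of all, 786-O-VHL replicate 1, thus held nearly as many DDIT3 reads as the shallower 786-O-Ctrl library. DDIT3 was 5.27-fold higher in 786-O-VHL (log2 fold change 2.40, SE 0.0839, edgeR FDR 1.67e-19). MARS1, the methionyl-tRNA synthetase, shares 27.2% of DDIT3's exon bases on the opposite strand and was at 253, 267, 376 and 420 CPM in the same order of libraries. Its part in the DDIT3 counts was not tested, and its own log2 fold change was 0.63.

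NUPR1 (chr16:28544029-28550329, minus strand), a small chromatin-associated protein induced by many stresses, had the largest difference of the 10 genes. It was counted 643 and 526 times in the 786-O-Ctrl libraries and 949 and 6070 times in 786-O-VHL replicates 1 and 2. These counts correspond to 30.5 and 35.0 CPM, against 322 and 360 CPM. Both 786-O-VHL libraries stood far above both controls. The fitted difference was 10.6-fold (95% CI 9.48 to 11.8, log2 fold change 3.40, SE 0.0777, edgeR FDR 3.43e-23), which ranked 83 among rises, 138 by size in either direction and 2 by p among all 12335 genes. A lncRNA annotated on the same strand covers 16.5% of the exon bases of NUPR1, and reads may be split between them.

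CEBPB (chr20:48807367-48809205) and CEBPG (chr19:33864591-33873592) encode C/EBP factors that dimerize with ATF4, CEBPG without an activation domain of its own. CEBPB was at 89.7 and 100 CPM in 786-O-Ctrl, against 254 and 272 CPM in 786-O-VHL. CEBPG was at 46.6 and 48.1 CPM in 786-O-Ctrl, against 95 and 98.0 CPM in 786-O-VHL. Neither gene's libraries overlapped between the sublines, and each pair of replicates lay close together. The log2 fold changes were 1.49 (SE 0.0683, FDR 5.39e-17) and 1.04 (SE 0.0717, FDR 4.46e-13) by edgeR. CEBPB lost no call in any alternative, though 12.6% of its exon bases are shared with an antisense lncRNA.

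TRIB3 and PPP1R15A act back on the response. TRIB3 (chr20:343479-378203), a pseudokinase that binds ATF4 and AKT, was at 292 and 316 CPM in 786-O-Ctrl, against 574 and 652 CPM in 786-O-VHL. PPP1R15A (chr19:49375469-49379316), the subunit that directs protein phosphatase 1 to eIF2α, was at 88.5 and 101 CPM in 786-O-Ctrl, against 390 and 494 CPM in 786-O-VHL. All 786-O-VHL values of these genes were above all 786-O-Ctrl values, and PPP1R15A had the widest gap between 786-O-VHL replicates of the 10 genes, 0.34 on the log2 scale. That gap is small beside its log2 fold change of 2.25 (SE 0.0835, edgeR FDR 5.26e-19). TRIB3 rose by 1.02 on the same scale (SE 0.0669, edgeR FDR 1.4e-13).

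CHAC1 (chr15:41245160-41248710), a glutathione-degrading enzyme, was at 21.3 and 22.7 CPM in 786-O-Ctrl, against 73.6 and 72.8 CPM in 786-O-VHL. Replicates of each subline were nearly equal, and the sublines were well apart. Its log2 fold change was 1.74 (SE 0.0887, edgeR FDR 5.92e-16). VLDLR (chr9:2621182-2660056), a lipoprotein receptor induced by ATF4 and also known as a hypoxia target, was at 45.3 and 53.7 CPM in 786-O-Ctrl, against 62.1 and 66.1 CPM in 786-O-VHL. The libraries did not overlap, but the shallower 786-O-Ctrl library came close to 786-O-VHL replicate 1. Its difference of 0.40 on the log2 scale (SE 0.0854, edgeR FDR 0.000166) was the smallest called rise of the 10 genes. Without the deeper 786-O-Ctrl library it was 0.27 and no longer passed (edgeR FDR 0.0642, the highest of 11 alternatives, the lowest being 3.06e-06).

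**Figure D1:**
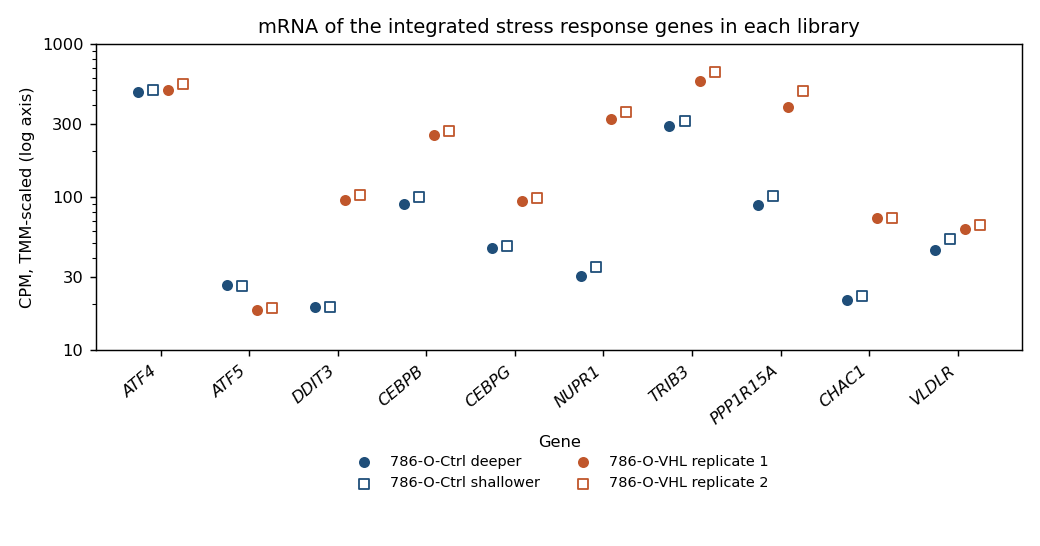
Level of each gene in each library, in TMM-scaled CPM on a log axis, with 786-O-Ctrl in blue (circle, the deeper library; open square, the shallower) and 786-O-VHL in orange (circle, replicate 1; open square, replicate 2). NUPR1 moves from 30.5 and 35.0 to 322 and 360 CPM, the 4 points of ATF4 lie between 483 and 549 CPM, and ATF5 is lower in 786-O-VHL.

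**Figure D2:**
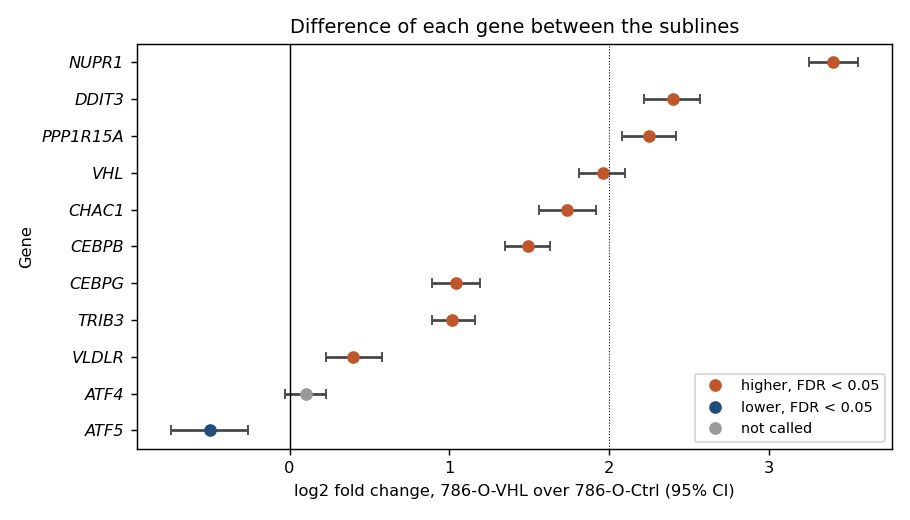
Log2 fold change of the 10 genes and of VHL, 786-O-VHL over 786-O-Ctrl, as points with 95% confidence intervals from the edgeR fit of 2 against 2 libraries. The dotted line marks 4-fold, and the order runs from NUPR1 at 3.40 to ATF5 at -0.50, with the interval of ATF4 across 0.

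Per kilobase of exons the genes also differed in rank between the sublines, as a description with no test between genes. In 786-O-Ctrl, ATF4 was highest at 188 ± 4.4 CPM per kb (SD, n = 2), followed by TRIB3 at 92.3 ± 5.27, CEBPB at 51.6 ± 4.01 and PPP1R15A at 27.6 ± 2.63. DDIT3 (14.8), CEBPG (11.7), CHAC1 (10.7), ATF5 (9.16), NUPR1 (5.95) and VLDLR (3.0) were below these on the CPM per kb scale. No neighbours in this order lay within their SDs of each other, but with the length of the longest transcript CHAC1 (14.5) and ATF5 (13.2) stood above CEBPG (12.3 CPM per kb). In 786-O-VHL, ATF4 (201 ± 13.3) and TRIB3 (186 ± 16.7 CPM per kb) were within their spread of each other, and so were CEBPB (143 ± 6.82) and PPP1R15A (129 ± 21.6). DDIT3 was at 76.4, NUPR1 at 61.9, CHAC1 at 35.7, CEBPG at 23.8, ATF5 at 6.43 and VLDLR at 3.88 CPM per kb. The place of NUPR1 rests on a long annotated transcript of 5291 bases, so its level per kb would be higher if a shorter transcript were the one in these cells.

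**Figure D3:**
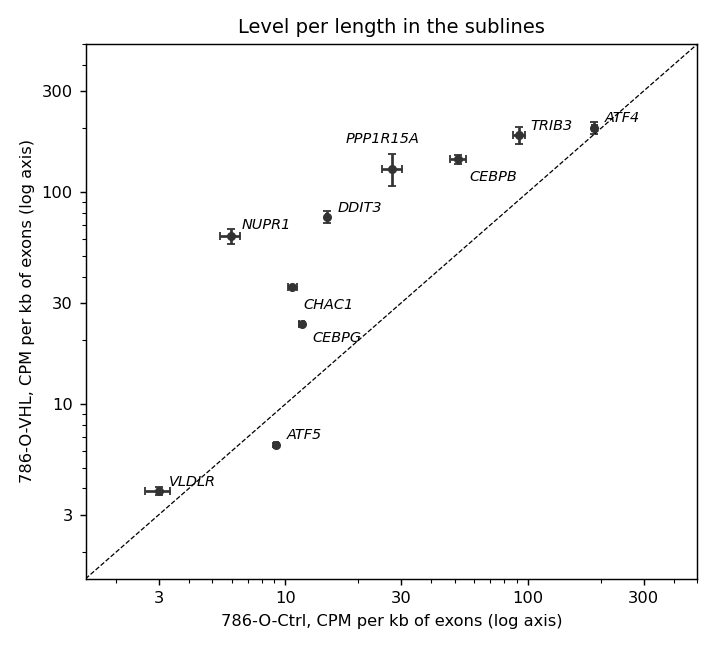
Mean level of each gene per kilobase of exons in 786-O-Ctrl (horizontal) and 786-O-VHL (vertical), both on log axes, with SD bars of 2 libraries and a dashed line of equal level. NUPR1 at 5.95 and 61.9 CPM per kb lies farthest above the line, ATF4 at 188 and 201 lies close to it and ATF5 below it.

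The leaders of the mRNAs were read from the canonical transcripts of the annotation. Upstream reading frames are part of what is known of this response, so these counts describe the chosen genes and are no independent result. An upstream ATG was present in 6 of the 10 genes, against 41.5% of 12614 transcripts, with 3 in ATF4 and DDIT3, 2 in ATF5, PPP1R15A and TRIB3, and 1 in CEBPG. In ATF4, ATF5 and DDIT3 a reading frame from an upstream ATG ran out of frame into the coding sequence, as in 12.9% of all transcripts. CHAC1, VLDLR, CEBPB and NUPR1 had none. Genes with such overlapping frames were among those that rose (DDIT3), fell (ATF5) and were not called (ATF4) in mRNA level. On the genome, 3 of the genes (ATF5, CEBPG and PPP1R15A) lie on chromosome 19 and 2 (TRIB3 and CEBPB) on chromosome 20.

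Of the 4 kinases upstream of eIF2α, 2 were lower in mRNA level and 2 were not called. EIF2AK3 (PERK, the sensor in the endoplasmic reticulum) fell, from 27.9 and 27.6 to 21.7 and 17.3 CPM, with a log2 fold change of -0.61 (SE 0.122). Without replicate 2 of 786-O-VHL it was -0.36 and did not pass. EIF2AK4 (GCN2, the sensor of uncharged tRNA) fell from 130 and 134 to 95 and 103 CPM, with a log2 fold change of -0.39 (SE 0.0674). EIF2AK1 (HRI, the heme-regulated kinase) and EIF2AK2 (PKR, which binds double-stranded RNA) were not called, at 0.01 (95% CI -0.12 to 0.14) and 0.08 (95% CI -0.05 to 0.22). On library totals alone, which raised the median of all genes to 0.15, both were called higher, at 0.14 and 0.22. Over the 22 genes of the kinases, phosphatase, eIF2 and eIF2B, 6 were higher (27.3%) and 10 lower (45.5%), against 32.6% and 31.9% of all genes tested, and the median on the log2 scale was -0.12. Without TMM, on library totals, 9 were higher and 8 lower, against 5077 and 3097 of all 12335 genes. Of the genes called in that fit, 52.9% of this list and 62.1% of all genes were higher. OMA1, the mitochondrial protease that relays stress to HRI, rose by 0.94, NCK1 by 0.65 and the phosphatase subunit PPP1CB by 0.45 on the log2 scale. The other catalytic subunits PPP1CC and PPP1CA fell by 0.96 and 0.56.

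Amino acid supply is the best known output of ATF4. Of 15 genes of amino acid synthesis and one-carbon metabolism, 12 rose (80.0%) and 1 fell (6.67%), at a median of 0.69 on the log2 scale. Over all genes tested, 32.6% were called higher and 31.9% lower. CTH, which makes cysteine from cystathionine, was at 17.7 and 20.7 CPM in 786-O-Ctrl, against 71.9 and 65.6 CPM in 786-O-VHL (log2 fold change 1.82, SE 0.0987). ALDH1L2, a mitochondrial folate enzyme, rose by 1.57 (SE 0.0959), and ALDH18A1, of proline synthesis, fell by 0.75 (SE 0.0661). PHGDH was called higher, but on 7, 1, 3 and 19 counts, so that the call rests on few reads, and it was lost without the shallower 786-O-Ctrl library (1.70) and with DESeq2 (2.37). ASNS, the asparagine synthetase and a standard ATF4 target, was chosen for mention after its values were seen. It was low throughout, at 3.89 and 3.85 against 5.43 and 8.97 CPM, and rose by 1.07 (SE 0.231). That call was lost without replicate 2 of 786-O-VHL (0.48).

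Of 12 amino acid transporters, 6 were higher and 5 lower, with a median of 0.25 on the log2 scale, where 32.6% and 31.9% of all genes were called in these directions. SLC43A1, SLC38A2 and SLC1A5, which carry large neutral amino acids and glutamine, rose by 1.38, 1.06 and 0.88, SLC1A5 from 384 and 405 to 694 and 750 CPM. The glycine transporter SLC6A9, SLC36A4 and SLC7A6 fell by 1.56, 1.09 and 0.53, of which SLC7A6 was not called without replicate 2 of 786-O-VHL (-0.40). Of 19 cytosolic tRNA synthetases, 10 rose (52.6%) and 6 fell (31.6%), with a median of 0.17. Of all genes tested, 32.6% rose and 31.9% fell, so the share that fell was near that of all genes. On library totals alone 12 rose and 3 fell, against 5077 and 3097 of all 12335 genes. WARS1, AARS1 and SARS1 rose by 1.83, 1.24 and 1.11, with WARS1 at 143 and 155 against 525 and 532 CPM. HARS1, RARS1 and QARS1 fell by 0.99, 0.50 and 0.35.

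Other effectors of ATF4 and DDIT3 were mostly higher, at 13 of 18 tested (72.2%) with 1 lower (5.56%). The shares over all genes tested were 32.6% and 31.9%, and the median log2 fold change of the 18 was 0.77. TXNIP, a thioredoxin-binding arrestin that restrains glucose uptake, was at 57.9 and 58.0 CPM in 786-O-Ctrl and rose 20.4-fold in 786-O-VHL (log2 fold change 4.35, SE 0.0694). Whether this rise depends on ATF4 or DDIT3 was not tested. GDF15, a secreted stress cytokine, was at 66.2 and 77.7 CPM in 786-O-Ctrl, against 394 and 531 CPM in 786-O-VHL (log2 fold change 2.72, SE 0.0944). KLHL24 rose by 2.29 and ERO1A, an oxidase of the endoplasmic reticulum that hypoxia also induces, fell by 0.91. DDIT4 and VEGFA, which hypoxia induces as well and which were picked after their values were seen, were not called, at -0.07 (95% CI -0.20 to 0.06) and -0.08 (95% CI -0.21 to 0.04). Without replicate 1 of 786-O-VHL, VEGFA was called lower at -0.12. FGF21 was listed at 0, 0, 1 and 14 counts and was not tested.

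The arm of the unfolded protein response that runs through ATF6 and XBP1 shares the endoplasmic reticulum stress but not eIF2α. Of its 19 genes tested, 6 were higher (31.6%) and 11 lower (57.9%), against 32.6% and 31.9% of all genes tested. The share called higher was thus near that of all genes. Their median on the log2 scale was -0.74. The calcium-binding chaperone CALR fell from 1730 and 1710 to 387 and 396 CPM, a log2 fold change of -2.13 (SE 0.0621). The chaperone cofactor SDF2L1 and the disulfide isomerase PDIA4 fell by 1.76 and 1.63. ERN1, which encodes the sensor IRE1, rose by 1.92, the co-chaperone DNAJB9 by 1.35 and HERPUD1, of protein degradation at the endoplasmic reticulum, by 1.30. HSPA5 (BiP), picked after its values were seen, was higher by 0.22 (95% CI 0.10 to 0.35), a call lost without the deeper (0.24) or the shallower (0.19) library of 786-O-Ctrl. The members of this list thus went in both directions, and 1 median does not describe them.

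**Figure D4:**
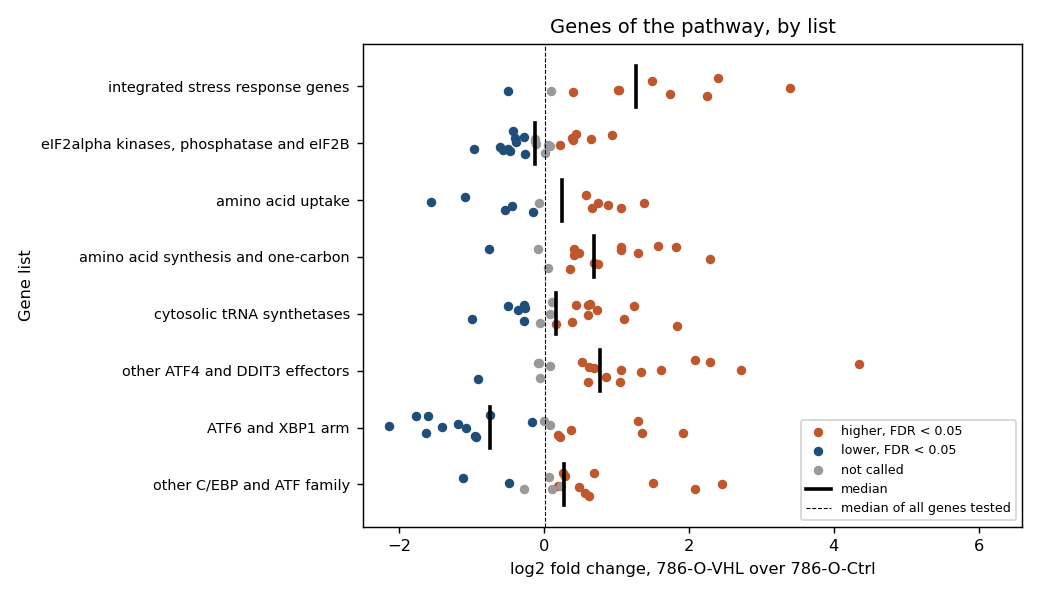
Log2 fold change, 786-O-VHL over 786-O-Ctrl, of each tested gene (points, spread vertically for legibility only) in the 10 integrated stress response genes and 7 lists around them, coloured by the edgeR call. Thick lines are list medians, from 1.27 for the 10 genes to -0.74 for the ATF6 and XBP1 arm, and the dashed line is the median of all genes tested, 0.02.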

How the data were processed

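The comparison used 4 RNA-seq libraries, 2 for each subline. The authors deposited raw counts of reads per gene for 12912 genes, without normalization. The submitters' processing notes name CASAVA, STAR and hg19. How reads were counted, with which annotation and strand setting, is not given in the sources used here. Strand is not marked by the library kit. All libraries were taken by genotype label. Replicates differed by more than sampling noise (chi-square per degree of freedom 2.25 and 2.76), and each was counted as 1.

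The test was that of edgeR 4.0.16 under R 4.3.3 (filterByExpr, which removed 577 genes, TMM, quasi-likelihood test, Benjamini-Hochberg over 12335 genes). The common dispersion was 0.00186. CPM values use TMM-scaled library sizes. Of the identifiers, 12749 were found in the GRCh37 annotation, which gave coordinates, lengths and overlaps. Promoter windows came from RefSeq (GRCh38.p14).

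The 10 genes and all lists were chosen with earlier results of these data known. Named were all 10 genes, VHL, the 4 eIF2α kinases, and of each list at most 3 genes per direction with the largest change among those called whose libraries did not overlap. ASNS, DDIT4, VEGFA, HSPA5, MARS1 and FGF21 fall outside this rule and were chosen after their values were seen. SLC7A3, VARS1, SESN2, HYOU1, BATF and CEBPE were not analysed here. Alternatives were DESeq2 1.42.0, limma-voom (limma 3.58.1), RLE size factors, library totals alone, no filter, at least 10 counts in every library, thinning to the shallowest library, each library left out, and the study's threshold of 4-fold with an FDR under 0.01.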

Additional observations from a re-analysis of the deposited data

How the results depend on the processing

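Each of the 10 genes was refitted under 11 alternatives, and 107 of 110 calls kept their direction and their side of the threshold. The exceptions were ATF4, called higher without 786-O-VHL replicate 1 (0.16) and on library totals alone (0.23), and VLDLR, not called without the deeper 786-O-Ctrl library (0.27). Library totals alone moved the median log2 fold change of all genes to 0.15 and the calls over all genes from 4017 higher and 3939 lower to 5077 and 3097. DESeq2 called 2861 higher and 3147 lower. Past 4-fold with an FDR under 0.01, 3 of the 10 genes were higher and 0 lower. NUPR1 ranged from 3.22 to 3.54, DDIT3 from 2.30 to 2.61, PPP1R15A from 2.04 to 2.39 and ATF5 from -0.54 to -0.37. VHL mRNA kept its call in each alternative run. The total of genes called over all lists, in each direction, came within 1.5 times of the main count in each run. Single lists moved more: the other C/EBP and ATF family had 5 higher with DESeq2, after thinning and without 786-O-VHL replicate 2, against 10. Of 45 other genes named, 34 kept every call and direction in the alternatives in which they were tested. CEBPA and BATF3 were tested in 9 of the 11 alternatives and PHGDH in 8, as their low counts were filtered out in the others. Changes of direction were seen only in genes not called: EIF2AK1 (-0.01 with DESeq2, -0.03 without the deeper 786-O-Ctrl library, -0.0 with RLE, without 786-O-VHL replicate 2 and with no filter, with leave-one-out values from -0.03 to 0.04), EIF2AK2 (-0.01 after thinning, leave-one-out -0.01 to 0.12), DDIT4 (0.06 on library totals alone, leave-one-out -0.15 to 0.01) and VEGFA (0.05 on library totals alone). Per kilobase of the canonical transcript, an alternative chosen after seeing the data, ATF4 stood at 346 and 369 CPM per kb. Where a library was left out, the lone library of its group was assumed to vary like the other group. No paired analysis was possible because 1 replicate name stands on both columns of 786-O-Ctrl. The 2807779 counts of 786-O-VHL replicate 1 make genes with few counts the least certain.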

Other observations

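Other members of the C/EBP, ATF and CREB families include possible dimer partners of ATF4 and DDIT3, though not every gene of this list is one. Of 16 tested, 10 were higher (62.5%) and 2 lower (12.5%), against 32.6% and 31.9% of all genes tested. The median log2 fold change of the 16 was 0.28. ATF3, a stress-induced repressor that pairs with this family, was at 23.9 and 29.3 CPM in 786-O-Ctrl, against 103 and 117 CPM in 786-O-VHL (log2 fold change 2.09, SE 0.0874). CEBPA, a differentiation factor of the C/EBP family, was called higher on 9, 7, 7 and 42 counts, and BATF3 on 11, 5, 4 and 21 counts, so that both calls rest on few reads. BATF3 lost its call without 786-O-VHL replicate 2 (1.59), without the deeper (1.90) or the shallower (1.26) 786-O-Ctrl library and with DESeq2 (1.56). CREB3L1 and CREB3L2, membrane-bound factors cleaved in the Golgi, fell by 1.12 (SE 0.232) and 0.48 (SE 0.0631), and CREB3L1 was not called without 786-O-VHL replicate 2 (-0.84). CREB3L2 was at 270 and 272 CPM in 786-O-Ctrl, against 194 and 195 CPM in 786-O-VHL. The count of higher genes was 5 after thinning to the shallowest library, with DESeq2 and without 786-O-VHL replicate 2, and 6 without the deeper 786-O-Ctrl library. The count of lower genes was 1 without 786-O-VHL replicate 2. Higher calls over all genes fell too, from 4017 to 2861 with DESeq2 and to 2808 of 10816 tested after thinning. ATF3, CEBPD and JDP2 also stand in the list of other ATF4 and DDIT3 effectors, and ATF6 also stands in the ATF6 and XBP1 arm.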
